A study of Mus musculus with 12 samples.

Results

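H19 and the imprinted growth genes are a group of genes expressed mainly from 1 parental copy, and they were taken by symbol from a list of 10: H19, Igf2, Dlk1, Meg3, Cdkn1c, Peg3, Plagl1, Grb10, Igf2r and Mest. Of these, 9 were found among the 15754 genes of the deposited count table, and Igf2 is not among the rows analysed here. H19 was chosen with its level under both mimics known, so its values against control are given as a description with no test. The other 8 genes were chosen for their place in the imprinted gene family, also with earlier results of these data known.

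The cells were primary white adipocytes. Their precursors came with the stromal vascular fraction, which also holds vascular and immune cells, of the epididymal fat of male wild-type C57BL/6 mice aged 8 weeks on chow. All groups shared differentiation in insulin (850 nM), IBMX (250 µM), dexamethasone (1 µM) and rosiglitazone (1 µM), a reverse transfection on day 4 and the harvest on day 7. The groups were cells given a let-7d-5p mimic, cells given a let-7e-5p mimic and cells given a negative control, with 4 libraries of total RNA each. In every group, replicates 3 and 4 carry sample identifiers of one run of numbers (run 2) and replicates 1 and 2 those of another (run 1), and the labels do not say what these runs are. Whether replicates came from separate cultures or animals is not stated, so a p-value here measures library-to-library spread, possibly technical.

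Genomic imprinting silences 1 parental copy of a gene through DNA methylation laid down in the germ line. Many imprinted genes set fetal growth, with paternally expressed genes such as Igf2, Dlk1, Peg3, Plagl1 and Mest and maternally expressed ones such as H19, Meg3, Cdkn1c, Grb10 and Igf2r, and several of them also act in the formation or enlargement of fat cells. H19 is a long noncoding RNA that lies beside Igf2, carries the precursor of miR-675 and has been described as binding let-7 microRNAs. Those microRNAs guide Argonaute proteins to RNAs that pair with bases 2 to 8 of the microRNA, its seed.

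The sequences of both microRNAs are shown because the mimics share the seed and differ elsewhere. They are taken from RefSeq (GRCm38.p6), with the seed in capitals. The let-7d gene's mature product lies at chr13:48536078-48536099 on the minus strand and that of let-7e at chr17:17830366-17830387 on the plus strand.
let-7d-5p: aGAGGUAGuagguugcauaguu
let-7e-5p: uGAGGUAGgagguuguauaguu
Counted from 1 at the 5′ end, with the let-7d base first, the sequences differ by A1U, U9G and C16U, none of which lies in the seed.

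Sites were sought in the transcripts of GENCODE vM21 (GRCm38.p6) as CTACCTCA (8mer), CTACCTC (7mer-m8) and TACCTCA (7mer-A1), on the transcribed strand, with an 8mer counted once. Of 13547 tested genes with an annotated 3′ UTR, 16.99% held at least 1 of these there, as did 21.64% of 1183 noncoding genes in their longest transcript. H19 held none of them in any of its 7 annotated transcripts, and not even the core TACCTC. The longest uninterrupted Watson-Crick match of H19 to either mimic had 7 bases, pairing with bases 3 to 9. It is shown in capitals because of its length, and it leaves out base 2 of the seed.
H19, let-7d match, chr7:142576216-142576238 minus strand: accactacACTACCTgcctcagg
H19, let-7e match, chr7:142576420-142576442 minus strand: ctcctcccCCTACCTtgaaccct
If G:U pairs are also allowed in the seed, the H19 transcript of 2286 bases held 8 matches, and 93.91% of the noncoding genes held at least 1.

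The sites of Igf2r and Grb10 are shown because these were the members called against control, with the seed match in capitals. Igf2r had an 8mer in its 3′ UTR and another in its coding sequence, beside a 7mer-A1, and Grb10 had 1 7mer-A1 in its 3′ UTR.
Igf2r, 3′ UTR, chr17:12683035-12683057 minus strand: acctgctccgtgccCTACCTCAt
Igf2r, coding sequence, chr17:12714952-12714974 minus strand: acacggaggaaataCTACCTCAa
Grb10, 3′ UTR, chr11:11932223-11932245 minus strand: gcttagggtgagaagTACCTCAc
Among 3′ UTRs within 20% of the same length, 15.18% held a 7mer or 8mer for Igf2r and 27.5% for Grb10. No such share was computed for coding sequences, so the coding matches of Igf2r have none beside them. Such a match in letters is a description of the sequence and was not measured as a bound site.

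Some of the other members tested against control held matches too, and none of these members was called there. Mest had 1 7mer-A1 and Peg3 1 7mer-m8 in the 3′ UTR. Among 3′ UTRs within 20% of the same length, 15.05% held a 7mer or 8mer for Mest and 32.44% for Peg3. Plagl1 had 1 8mer in the coding sequence, and the Meg3 transcript of 14548 bases had 2 8mers and 1 7mer-m8. The noncoding transcripts searched had a median of 1736 bases, so their share of 21.64% is not matched to the length of Meg3. The coding match of Plagl1 has no share beside it either. Dlk1 and Cdkn1c had no 7mer or 8mer in the 3′ UTR or the coding sequence. The Meg3 matches lie in the 3′ part of the transcript, and the one closest to its 3′ end is shown.
Meg3, chr12:109571615-109571637 plus strand: atgggctcaggttcCTACCTCAc

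**Figure D1:**
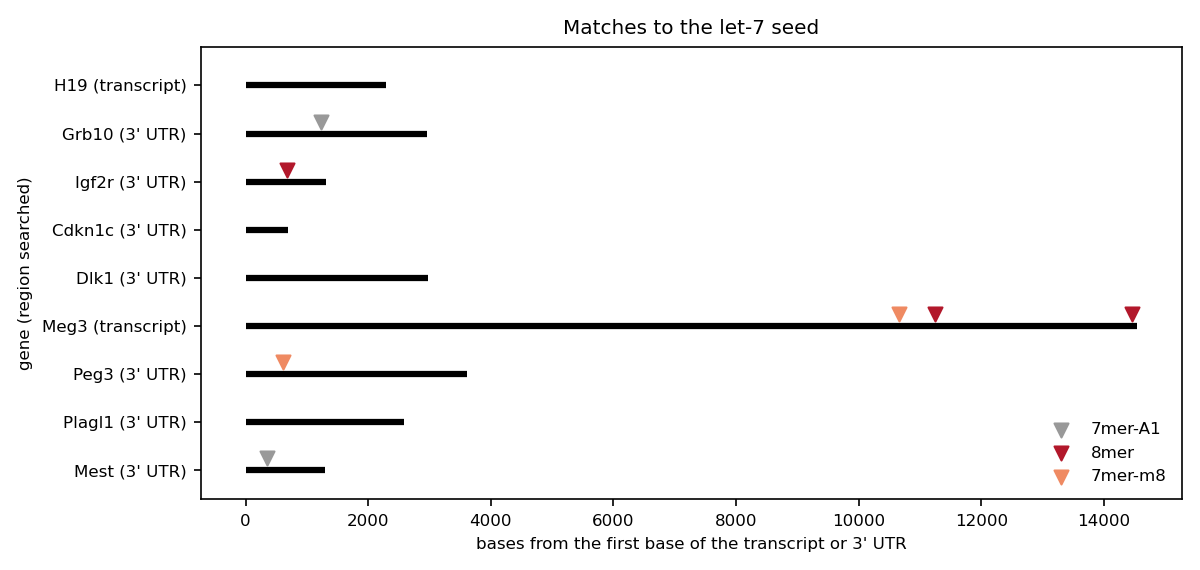
Black lines span the longest annotated H19 or Meg3 transcript or the 3′ UTR of the other genes, in bases from the first base, and triangles mark seed matches by type. The H19 line of 2286 bases carries no mark, Igf2r carries 1 8mer, and Meg3 carries 3 marks toward its right end.

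The depth per library ran from 15071299 to 33396316 counts. Adipocyte markers such as Fabp4 were present in every library, but they split by run. The summed level of the 9 measured markers of a list of 10 was 3897 to 5663 CPM (counts scaled by library size and TMM) in run 2 and 17190 to 19220 in run 1, and all 9 were called lower in run 2. Summed preadipocyte and fibroblast markers (14 genes) ran from 21400 to 23900 CPM in run 2 and from 36510 to 42360 in run 1, although 9 of the 14 genes were called higher in run 2 and 5 lower (median log2 difference 0.81). Macrophage markers (13 genes) summed to 26.87 to 149.2 CPM in run 2 and 231.5 to 350.8 in run 1. In bulk RNA, fewer cells of a type and less RNA per cell cannot be told apart.

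H19 (ENSMUSG00000000031, chr7:142575529-142578143, minus strand, a lincRNA of 2460 exonic bases) was lower with both mimics than with control in each run. In run 2 H19 had 22.2 and 17.0 CPM with let-7d, 26.1 and 17.6 CPM with let-7e, and 49.2 and 40.5 CPM with control. In run 1 H19 had 7.63 and 5.99 CPM with let-7d, 6.62 and 8.61 CPM with let-7e, and 22.4 and 24.6 CPM with control. Within each run, every library of either mimic lay below both control libraries. Over both runs, all let-7d libraries still lay below all control libraries, while 1 let-7e library of run 2 lay above the controls of run 1. These levels rest on 115 to 588 counts with let-7d, 166 to 877 with let-7e and 354 to 1310 with control.

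**Figure D2:**
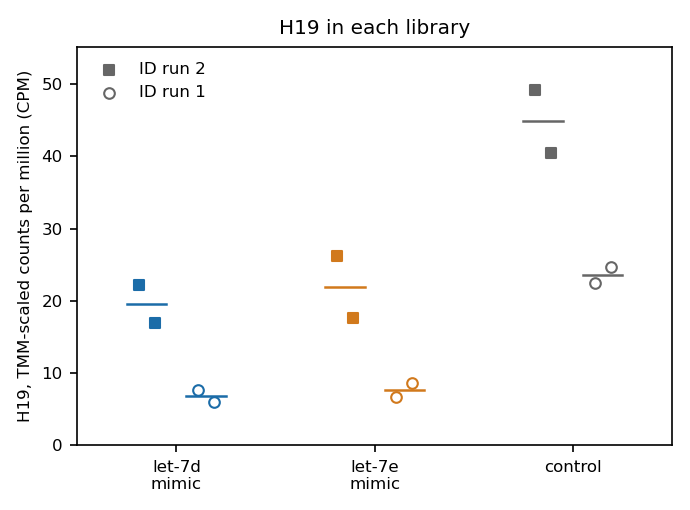
H19 in TMM-scaled CPM (y axis) in each library, by group (x axis), with filled squares for run 2, open circles for run 1 and short bars for the mean of 2 libraries. The mimic libraries lie at 16.97 to 26.14 CPM in run 2 and 5.989 to 8.608 CPM in run 1, below the control libraries of the same run.

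H19 averaged 13.2 ± 7.72 CPM with let-7d and 14.7 ± 8.97 CPM with let-7e, against 34.2 ± 12.9 CPM with control (SD, n = 4 each, both runs together). On the log2 scale, with the run fitted as a term, H19 differed from control by -1.44 ± 0.16 with let-7d and by -1.28 ± 0.15 with let-7e (SE), that is, 0.368 and 0.411 of the control level. H19 was selected on this contrast, so no p is given. Of the 15754 genes, 17 had a lower log2 fold change than H19 with let-7d and 29 with let-7e. H19 was chosen with these values known, so its place among the genes is a description as well. Both comparisons use the same 4 control libraries.

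Markers of smooth muscle and pericytes moved in the same direction as H19. Their summed level (8 genes) was 5299 to 5809 CPM with let-7d, 5607 to 5740 with let-7e and 6731 to 7065 with control in run 2, and in run 1 it was 3048 to 3172 CPM with let-7d, 2790 to 3078 with let-7e and 3398 to 4482 with control. Of the 8, 4 were called lower with let-7d and 3 with let-7e, and 0 were called higher. Over all genes 9.81% were called lower with let-7d and 5.69% with let-7e, and 6.41% and 3.81% higher. Between runs, 6 of the 8 were called higher in run 2 and 2 lower, beside 41.7% and 40.0% of all genes. The part of these 8 genes in the H19 values was not tested. Of the adipocyte markers, 1 of 9 was called lower with let-7d and 0 with let-7e. Of the 14 preadipocyte and fibroblast markers, 4 were called higher and 2 lower with let-7d, and 3 higher and 2 lower with let-7e. Among macrophage markers, let-7d gave 2 higher calls of 13 and let-7e gave 0. In run 2 the 13 genes summed to 63.67 to 149.2 CPM with let-7d, 48.13 to 75.49 with let-7e and 26.87 to 38.53 with control. In run 1 they summed to 302.9 to 323.4 CPM with let-7d, 231.5 to 350.8 with let-7e and 326.6 to 336.5 with control. There let-7d lay below control and let-7e spanned it. The part of these lists in the values of H19 was not tested either.

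Set against each other, the mimics gave H19 levels that were not distinguishable. The log2 difference of let-7d from let-7e was -0.16 ± 0.16 (SE), with a 95% interval from -0.53 to 0.21 (edgeR adjusted p = 0.807). It was -0.15 in run 2 and -0.17 in run 1, and 0.05 without let-7e replicate 3. None of the 9 members was called between the mimics by edgeR, where 0.152% of all genes were. Of the 9, 0 had an edgeR unadjusted p under 0.05. DESeq2 and limma-voom called 0 members as well, where they called 122 and 24 of all 15754 genes. A p that misses the threshold does not show equal levels. The interval of H19 was the widest of the 9, and that of Dlk1 ran from -0.10 to 0.59.

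The difference of H19 from control was smaller in run 2 than in run 1 for both mimics, without passing the test across all genes. With let-7d it was -1.17 in run 2 and -1.80 in run 1, a difference between runs of 0.61 ± 0.28 (SE, edgeR unadjusted p = 0.0432, adjusted p = 0.349). With let-7e it was -1.03 in run 2 and -1.63 in run 1, a difference of 0.61 ± 0.26 (edgeR unadjusted p = 0.0366, adjusted p = 0.53), and of 0.29 without let-7e replicate 3. The 2 tests share the control libraries.

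Igf2r and Grb10 fell with both mimics. Among the 8 members tested against control, let-7d gave 0 higher and 2 lower calls, beside 6.41% of all genes called higher and 9.81% called lower. With let-7e there were likewise 0 higher and 2 lower calls, beside 3.81% and 5.69% of all genes. The median log2 fold change of the 8 was -0.16 with let-7d and -0.14 with let-7e, where that of all genes was -0.0022 and -0.0019. With 8 genes picked with earlier results known, these counts describe the list only.

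**Figure D3:**
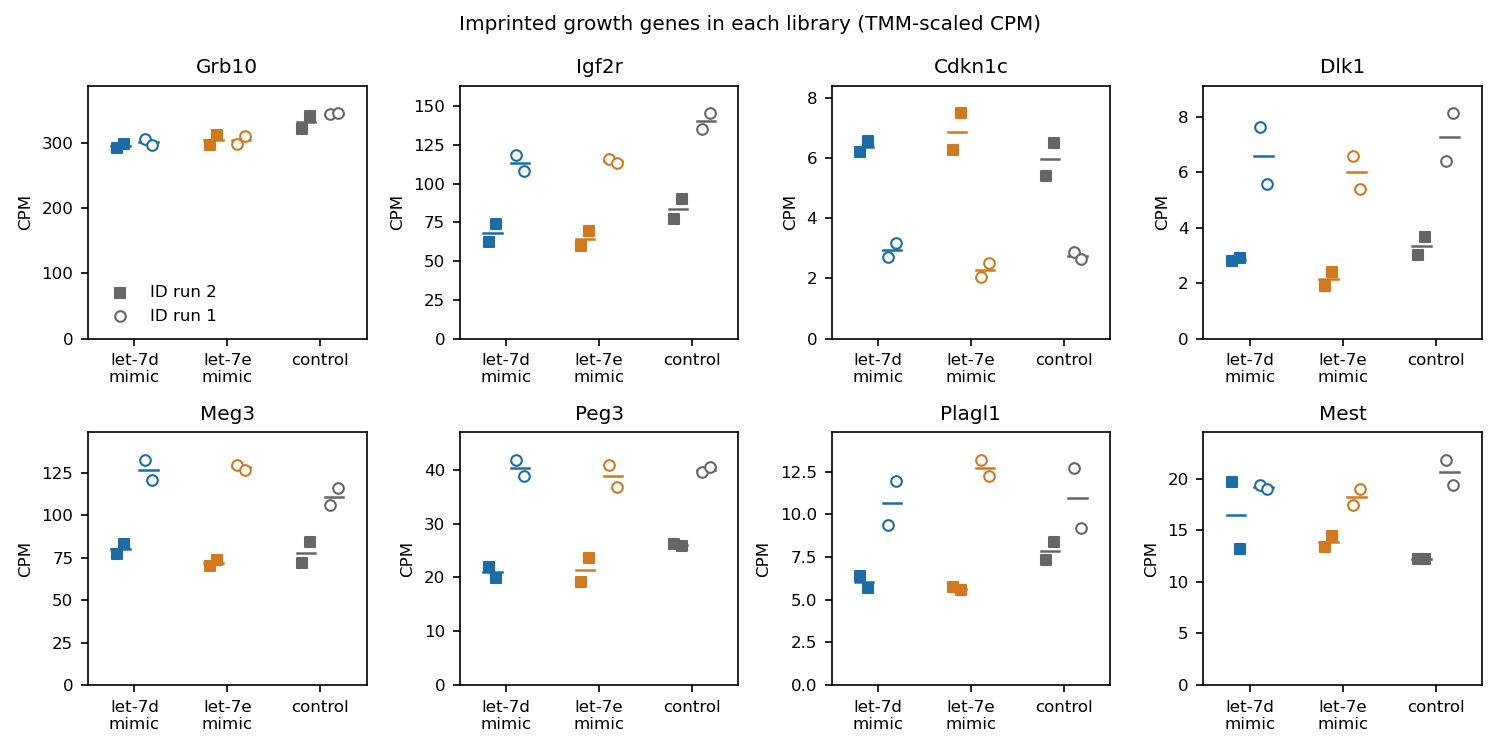
TMM-scaled CPM (y axis) of the 8 other members in each library, by group (x axis), with filled squares for run 2, open circles for run 1 and short bars for the mean of 2 libraries. Grb10 separates both mimics from control over all 12 libraries, Igf2r does so within each run, and the other 6 genes separate by run more than by group.

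Igf2r (ENSMUSG00000023830, chr17:12682406-12769664, minus strand) encodes the receptor that takes up IGF2 for breakdown in lysosomes and carries lysosomal enzymes. In run 2 Igf2r had 62.1 and 73.8 CPM with let-7d, 59.7 and 69.2 CPM with let-7e, and 77.4 and 90.3 CPM with control. In run 1 Igf2r had 118.3 and 108.1 CPM with let-7d, 116.1 and 113.3 CPM with let-7e, and 135.1 and 145.7 CPM with control. Within each run all mimic libraries lay below both control libraries, and across runs the groups overlapped. Igf2r fell by 0.31 ± 0.07 on the log2 scale with let-7d (SE, edgeR adjusted p = 0.00607) and by 0.33 ± 0.07 with let-7e (edgeR adjusted p = 0.00561). With let-7d the log2 fold change was -0.28 in run 2 and -0.30 in run 1, and with let-7e it was -0.38 in run 2 and -0.28 in run 1. Fitted by run, Igf2r was called in run 1 (edgeR adjusted p = 0.0113 with let-7d and 0.0202 with let-7e) and not in run 2 (edgeR adjusted p = 0.161 with let-7d and 0.14 with let-7e), each fit resting on 2 libraries per group. The antisense RNA Airn runs through the gene without sharing exonic bases with it, and it was called with neither mimic (log2 fold change -0.06 with let-7d and -0.18 with let-7e, edgeR adjusted p = 0.831 and 0.486).

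Grb10 (ENSMUSG00000020176, chr11:11930508-12038683, minus strand) encodes an adaptor that binds the insulin and IGF1 receptors and dampens their signal. In run 2 Grb10 had 292.5 and 298.7 CPM with let-7d, 296.3 and 311.5 CPM with let-7e, and 321.7 and 341.5 CPM with control. In run 1 Grb10 had 306.0 and 297.1 CPM with let-7d, 298.8 and 310.2 CPM with let-7e, and 343.7 and 345.6 CPM with control. All 8 mimic libraries lay below all 4 control libraries, and the libraries within a group and run differed little, with an SD of 0.04 on the log2 scale where the median gene had 0.12. Grb10 averaged 298.6 ± 5.59 CPM with let-7d and 304.2 ± 7.77 CPM with let-7e, against 338.1 ± 11.1 CPM with control (SD, n = 4 each). It fell by 0.18 ± 0.04 on the log2 scale with let-7d (SE, edgeR adjusted p = 0.0114) and by 0.15 ± 0.04 with let-7e (edgeR adjusted p = 0.0395). Fitted by run, Grb10 differed from control with let-7d by -0.15 in run 2 (edgeR adjusted p = 0.269) and by -0.18 in run 1 (edgeR adjusted p = 0.0489), and with let-7e by -0.12 in run 2 (edgeR adjusted p = 0.499) and by -0.17 in run 1 (edgeR adjusted p = 0.0829). The let-7e call was lost when any of 10 of the 12 libraries was left out, all but control replicate 3 and let-7d replicate 3, with edgeR adjusted p between 0.0526 and 0.132, while the value stayed between -0.17 and -0.14.

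**Figure D4:**
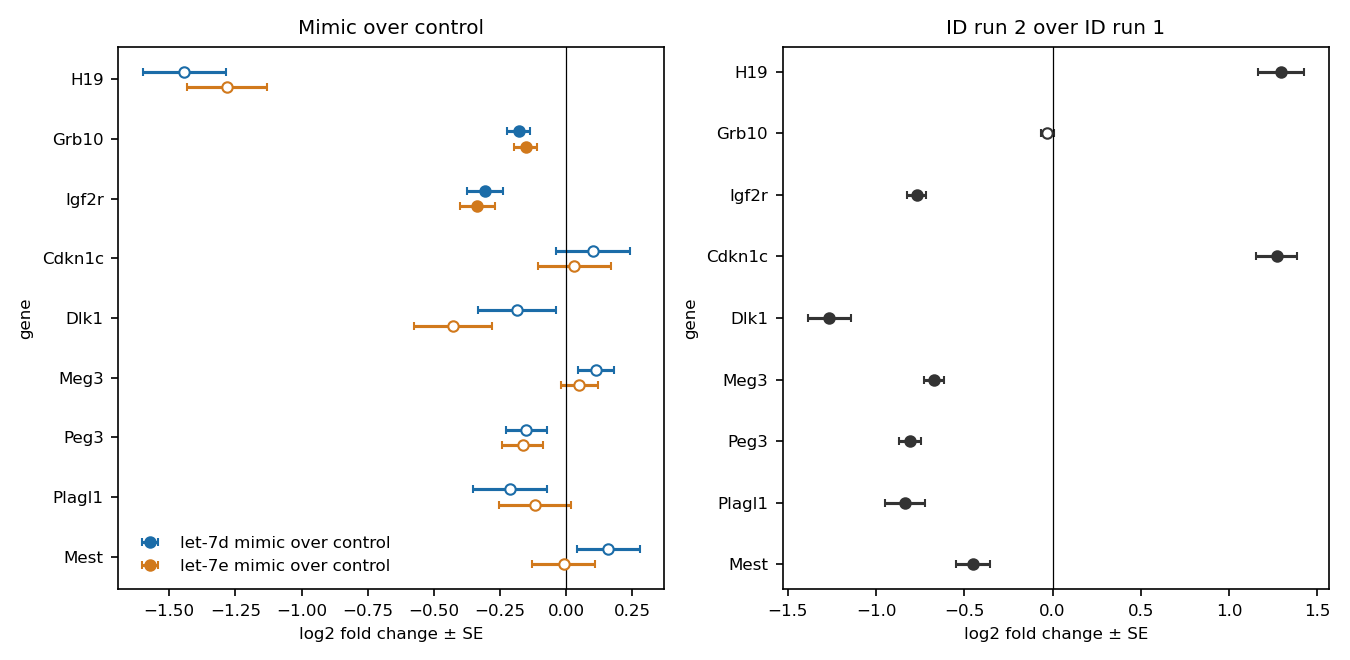
Log2 fold change with its standard error (x axis) of each member (y axis), mimic over control at left and run 2 over run 1 at right. Filled points were called at an adjusted p under 0.05, and open points were not called or, for H19 against control, not tested; H19 lies at -1.44 and -1.28 with the mimics and at 1.30 between runs.

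Of the paternally expressed members, none was called with either mimic. Dlk1 (ENSMUSG00000040856, chr12:109452823-109463336) encodes a membrane protein of preadipocytes that holds back their differentiation. In run 2 Dlk1 had 2.80 and 2.89 CPM with let-7d, 1.88 and 2.40 CPM with let-7e, and 3.01 and 3.68 CPM with control. In run 1 Dlk1 had 7.63 and 5.58 CPM with let-7d, 6.58 and 5.41 CPM with let-7e, and 6.42 and 8.14 CPM with control. All mimic libraries lay below control in run 2, whereas the groups overlapped in run 1. Its log2 fold change was -0.43 ± 0.15 with let-7e (SE, edgeR unadjusted p = 0.0107, adjusted p = 0.0843) and -0.18 ± 0.15 with let-7d (edgeR adjusted p = 0.441). These levels rest on 62 to 165 counts per library.

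Peg3 (ENSMUSG00000002265, chr7:6703892-6730431), a zinc finger protein, had 22.0 and 19.9 CPM with let-7d, 19.3 and 23.6 CPM with let-7e, and 26.2 and 25.9 CPM with control in run 2. In run 1 Peg3 had 41.9 and 38.9 CPM with let-7d, 40.9 and 36.9 CPM with let-7e, and 39.5 and 40.6 CPM with control. Both mimics lay below control in run 2, and in run 1 the groups overlapped. The log2 fold change was -0.15 ± 0.08 with let-7d (SE, edgeR adjusted p = 0.217) and -0.16 ± 0.08 with let-7e (edgeR adjusted p = 0.222).

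Plagl1 (ENSMUSG00000019817, chr10:13060504-13131694), a zinc finger transcription factor that restrains proliferation, had 6.39 and 5.70 CPM with let-7d, 5.72 and 5.57 CPM with let-7e, and 7.33 and 8.34 CPM with control in run 2. In run 1 Plagl1 had 9.36 and 11.9 CPM with let-7d, 13.2 and 12.2 CPM with let-7e, and 12.7 and 9.18 CPM with control. The mimics lay below control in run 2 and overlapped it in run 1. The log2 fold change was -0.21 ± 0.14 with let-7d (SE, edgeR adjusted p = 0.336) and -0.12 ± 0.14 with let-7e (edgeR adjusted p = 0.67).

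Mest (ENSMUSG00000051855, chr6:30723547-30748465), a protein of the endoplasmic reticulum whose level in mouse fat goes with the enlargement of fat cells, had 19.7 and 13.2 CPM with let-7d, 13.4 and 14.4 CPM with let-7e, and 12.2 and 12.2 CPM with control in run 2. In run 1 Mest had 19.37 and 19.01 CPM with let-7d, 17.43 and 18.97 CPM with let-7e, and 21.8 and 19.4 CPM with control. The mimic libraries lay above control in run 2 and below it in run 1. The log2 fold change was 0.16 ± 0.12 with let-7d (SE, edgeR adjusted p = 0.404) and -0.01 ± 0.12 with let-7e (edgeR adjusted p = 0.981). Mest shares 912 exonic bases with Copg2 on the other strand, and because the strand setting of the counting is not given in the sources used here, its counts are uncertain.

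Of the other maternally expressed members, Meg3 (ENSMUSG00000021268, chr12:109541001-109571726) is a long noncoding RNA of the same imprinted domain as Dlk1. In run 2 Meg3 had 77.0 and 83.1 CPM with let-7d, 70.4 and 73.9 CPM with let-7e, and 71.7 and 84.3 CPM with control. In run 1 Meg3 had 133.0 and 121.1 CPM with let-7d, 130.0 and 126.8 CPM with let-7e, and 106.1 and 116.2 CPM with control. The mimics lay above control in run 1 and overlapped it in run 2. The log2 fold change was 0.11 ± 0.07 with let-7d (SE, edgeR adjusted p = 0.301) and 0.05 ± 0.07 with let-7e (edgeR adjusted p = 0.737). Meg3 shares 1228 exonic bases with an RNA on the other strand that has no row here, so part of its counts is uncertain.

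Cdkn1c (ENSMUSG00000037664, chr7:143458339-143461050) encodes p57, an inhibitor of cyclin-dependent kinases. In run 2 Cdkn1c had 6.20 and 6.58 CPM with let-7d, 6.26 and 7.50 CPM with let-7e, and 5.41 and 6.50 CPM with control. In run 1 Cdkn1c had 2.72 and 3.18 CPM with let-7d, 2.03 and 2.53 CPM with let-7e, and 2.88 and 2.64 CPM with control. The groups overlapped in run 2, and in run 1 let-7d overlapped control while both let-7e libraries lay below it. The log2 fold change was 0.10 ± 0.14 with let-7d (SE, edgeR adjusted p = 0.677) and 0.03 ± 0.14 with let-7e (edgeR adjusted p = 0.931). The level rests on 38 to 210 counts per library, and 625 exonic bases overlap an antisense RNA with no row here.

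Between the runs of sample identifiers 8 of the 9 members were called. H19 and Cdkn1c were the 2 called higher in run 2, and 6 were called lower, where 41.7% of all genes were called higher and 40.0% lower, so a call between runs was the rule for any gene. H19 rose to 28.8 ± 13.2 CPM in run 2, against 12.6 ± 8.50 CPM in run 1 (SD, n = 6 each, all groups), a log2 difference of 1.30 ± 0.13 (SE, edgeR adjusted p = 7.22e-08). Cdkn1c rose by 1.27 ± 0.12 (edgeR adjusted p = 2.28e-08), with 5.41 to 7.50 CPM in run 2 and 2.03 to 3.18 CPM in run 1. In Cdkn1c the runs did not overlap, whereas in H19 the controls of run 1 lay within the range of the mimic libraries of run 2.

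Dlk1 fell by 1.27 ± 0.12 on the log2 scale in run 2 (SE, edgeR adjusted p = 4.66e-08), with 1.88 to 3.68 CPM in run 2 and 5.41 to 8.14 CPM in run 1. It is known from preadipocytes, and the list of preadipocyte and fibroblast markers held 9 genes called higher and 5 called lower in the same contrast. Plagl1 fell by 0.84 ± 0.11 (edgeR adjusted p = 2.99e-06), Peg3 by 0.81 ± 0.06 (edgeR adjusted p = 3.63e-09), Igf2r by 0.77 ± 0.06 (edgeR adjusted p = 1.14e-09), Meg3 by 0.67 ± 0.06 (edgeR adjusted p = 9.48e-09) and Mest by 0.45 ± 0.10 (edgeR adjusted p = 0.000393). In Igf2r, Meg3, Peg3, Plagl1 and Dlk1 the runs did not overlap. In Mest the runs overlapped. Grb10 was the member with no call, at 310.4 ± 18.7 CPM in run 2 and 316.9 ± 22.0 CPM in run 1 (SD, n = 6 each; log2 difference -0.03 ± 0.04, edgeR adjusted p = 0.464). Adipocyte markers fell in the same contrast with a median log2 difference of -2.48 over 9 genes, and the run cannot be told apart from anything else that differed between these sets of libraries.

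Within the control libraries, levels compared per kilobase of exon placed Grb10 first in both runs, at 35.4 to 37.6 CPM per kb in run 2 and 37.8 to 38.0 in run 1. In run 2 H19 came next (16.4 to 20.0 CPM per kb), followed by Igf2r (8.31 to 9.70), Meg3 (3.96 to 4.66), Mest (3.09 to 3.10), Cdkn1c (2.65 to 3.19), Peg3 (1.95 to 1.97), Plagl1 (0.937 to 1.07) and Dlk1 (0.532 to 0.651). In run 1 the order was Grb10, Igf2r (14.5 to 15.6), H19 (9.11 to 10.0), Meg3 (5.86 to 6.43), Mest (4.92 to 5.54), Peg3 (2.97 to 3.04), Plagl1 (1.17 to 1.62), Cdkn1c (1.30 to 1.41) and Dlk1 (1.13 to 1.44). H19 and Igf2r thus changed places between the runs. The length used joins all annotated exons of a gene (2460 bases for H19 and 18089 for Meg3), whichever transcripts the cells expressed. The order among genes rests on that length. The ranges of neighbours overlapped for Mest and Cdkn1c in run 2, and for Plagl1 with Cdkn1c and Cdkn1c with Dlk1 in run 1, each range resting on 2 libraries.

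In no member, H19 included, did the effect of a mimic differ between runs past the threshold over all genes. edgeR called 0 of 9 members for let-7d, where 0.241% of all genes were called, and 0 of 9 for let-7e, where 0.00635% were. DESeq2 also called 0 members, where it called 194 of all 15754 genes for let-7d and 52 for let-7e. limma-voom called 0 members too, where it called 16 of all genes for let-7d and 0 for let-7e. With 0 of all genes called, the let-7e count of limma-voom could not differ from 0. With each mimic 3 members had an edgeR unadjusted p under 0.05, H19 among them. The others were Mest and Peg3 with let-7d, and Meg3 and Plagl1 with let-7e. The share of all genes with such an unadjusted p is not given here, so these counts describe the members only. Peg3 had a difference of -0.33 ± 0.14 on the log2 scale, run 2 minus run 1 (SE, edgeR adjusted p = 0.313). Without let-7d replicate 4, Mest was called for let-7d, at 0.80 (edgeR adjusted p = 0.0244), and without let-7d replicate 3 its value was 0.22 (edgeR adjusted p = 0.679).

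The genes whose pattern lay nearest to that of H19 were Mfap3, Crk, Riok3, Magt1 and Tmem65, with r of 0.989, 0.983, 0.978, 0.977 and 0.973. This r is Pearson's correlation of log2 CPM with the mean of each run removed, over 12 libraries and among 10962 genes, and it serves as a measure of likeness with no test. The likeness was measured on the same libraries, so the shared sign of the log2 fold changes follows from how these genes were picked. Their log2 fold changes ran from -0.30 in Riok3 to -0.19 in Crk with let-7d and from -0.27 in Mfap3 to -0.17 in Crk with let-7e. Mfap3, for instance, averaged 47.6 ± 9.42 CPM with let-7d and 47.7 ± 8.74 CPM with let-7e, against 57.3 ± 8.85 CPM with control (SD, n = 4 each).

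Of 52 other imprinted genes listed, 41 were measured. With let-7d 7 of them were called higher and 2 lower (median log2 fold change 0.07), beside the 6.41% and 9.81% of all genes, and with let-7e 4 were called higher and 1 lower (median 0.05), beside 3.81% and 5.69%. The let-7e count leans on single libraries, with 1 gene called higher and 1 lower without control replicate 1. The parental class is that of the lists, and which copy these cells expressed was not measured. Among 19 genes listed as paternally expressed, 2 rose and 1 fell with let-7d and 1 rose and 1 fell with let-7e. Among 22 genes listed as maternally expressed, 5 rose and 1 fell with let-7d and 3 rose and 0 fell with let-7e. Without control replicate 1 the last 3, which are Rian, Tfpi2 and Blcap, all lost their call, and leaving out other single libraries left 1 to 4 maternally expressed genes higher with let-7e. With let-7d, Dcn lost its call under the RLE scaling (edgeR adjusted p = 0.0529). None of the 41 was called between the mimics, where 0.152% of all genes were, so this count describes the list only.

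**Figure D5:**
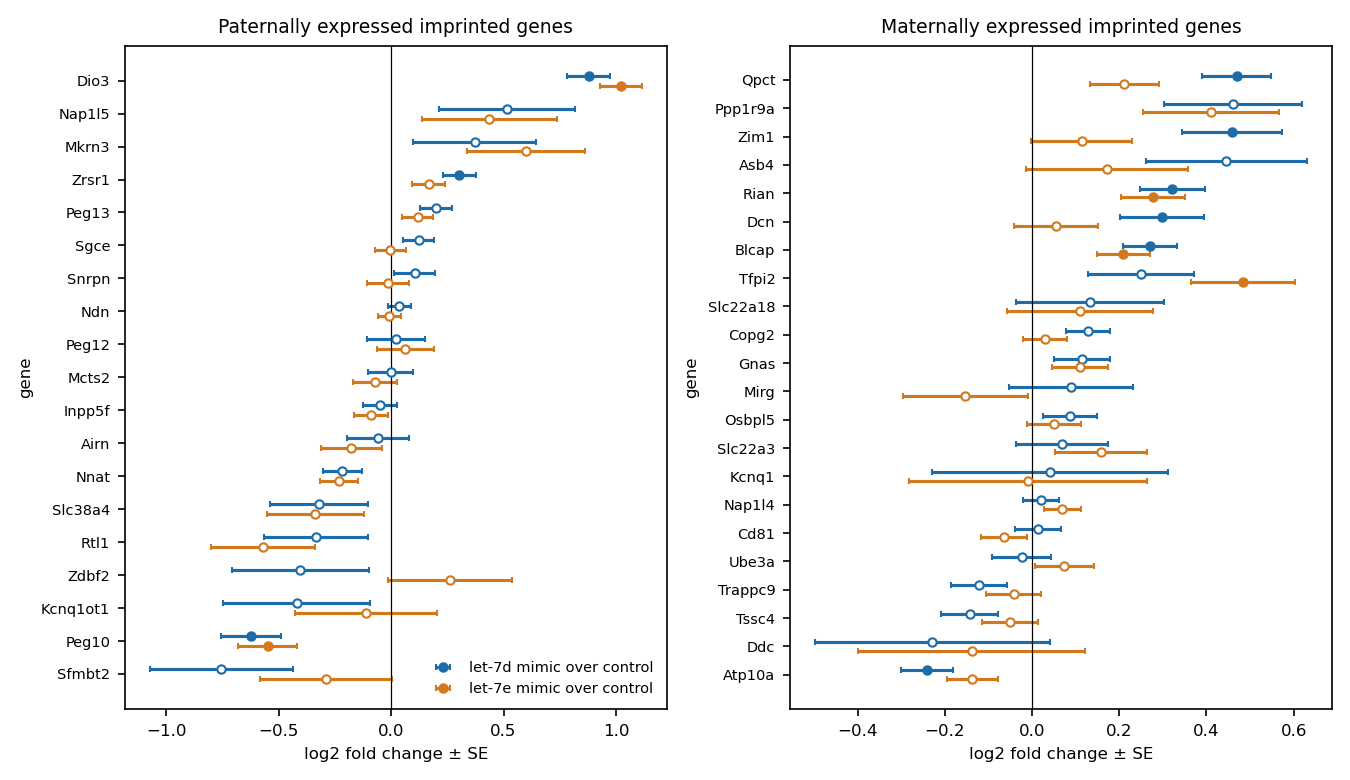
Log2 fold change over control with its standard error (x axis), for let-7d and let-7e. The genes (y axis) are 19 listed as paternally and 22 listed as maternally expressed, outside the member list. Filled points were called at an adjusted p under 0.05; Dio3 lies farthest right at 0.88 and 1.02, and Peg10 is called lower with both mimics.

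Dio3, which encodes the deiodinase that inactivates thyroid hormone and lies in the Dlk1 and Meg3 domain (chr12:110279068-110281097), was higher with both mimics, where H19 was lower. In run 2 Dio3 had 139.5 and 107.4 CPM with let-7d, 143.7 and 127.2 CPM with let-7e, and 81.3 and 64.4 CPM with control. In run 1 Dio3 had 52.8 and 59.8 CPM with let-7d, 61.4 and 63.9 CPM with let-7e, and 28.83 and 26.01 CPM with control. Within each run every mimic library lay above both controls. Dio3 rose by 0.88 ± 0.10 on the log2 scale with let-7d (SE, edgeR adjusted p = 2.76e-05) and by 1.02 ± 0.10 with let-7e (edgeR adjusted p = 1.56e-05), and it had no 7mer or 8mer in its 3′ UTR or coding sequence.

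Peg10, a gene derived from a retrotransposon and needed for the placenta in mouse, fell with both mimics. In run 2 Peg10 had 14.5 and 15.7 CPM with let-7d, 15.6 and 15.9 CPM with let-7e, and 16.7 and 20.5 CPM with control. In run 1 Peg10 had 28.1 and 26.9 CPM with let-7d, 26.04 and 32.58 CPM with let-7e, and 42.6 and 60.6 CPM with control. The mimics lay below control within each run, with log2 fold changes of -0.28 in run 2 and -0.89 in run 1 for let-7d and of -0.24 in run 2 and -0.80 in run 1 for let-7e, and the calls were not kept in run 2 alone (edgeR adjusted p = 0.201 and 0.418). The log2 fold change was -0.62 ± 0.13 with let-7d (SE, edgeR adjusted p = 0.00473) and -0.55 ± 0.13 with let-7e (edgeR adjusted p = 0.0147; 0.073 without let-7e replicate 1). Without control replicate 2, at 60.6 CPM the highest library, the values were -0.43 with let-7d and -0.36 with let-7e. Its 3′ UTR of 5166 bases held 2 7mer-A1 matches, at a length where 44.44% of 3′ UTRs held a 7mer or 8mer.

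Qpct, which encodes glutaminyl cyclase, rose with let-7d by 0.47 ± 0.08 on the log2 scale (SE, edgeR adjusted p = 0.000847). It had 36.5 and 33.5 CPM with let-7d against 27.7 and 22.4 CPM with control in run 2, and 17.5 and 18.5 CPM against 14.2 and 11.9 CPM in run 1, with no overlap within a run. With let-7e the log2 fold change of Qpct was 0.21 ± 0.08 (SE, edgeR adjusted p = 0.113). Tfpi2, a secreted inhibitor of serine proteases, rose with let-7e by 0.48 ± 0.12 (SE, edgeR adjusted p = 0.0176). It had 86.5 and 56.8 CPM with let-7e against 57.6 and 46.9 CPM with control in run 2, where the groups overlapped, and 23.4 and 24.0 CPM against 16.7 and 16.0 CPM in run 1. Without let-7e replicate 3 the Tfpi2 value was 0.32 (edgeR adjusted p = 0.0772), and without control replicate 1 or 4 the call was lost as well (edgeR adjusted p = 0.0543 and 0.0534). With let-7d the log2 fold change of Tfpi2 was 0.25 ± 0.12 (SE, edgeR adjusted p = 0.183), and neither gene was called between the mimics (edgeR adjusted p = 0.275 for Qpct and 0.562 for Tfpi2).

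Rian, a noncoding RNA next to Meg3 in the same maternally expressed stretch, was added after its values were seen. In run 2 Rian had 177.0 and 184.2 CPM with let-7d, 173.6 and 160.8 CPM with let-7e, and 151.6 and 168.1 CPM with control. In run 1 Rian had 120.2 and 119.6 CPM with let-7d, 118.5 and 124.6 CPM with let-7e, and 86.9 and 83.9 CPM with control. The let-7d libraries lay above control in both runs, and the let-7e libraries did so in run 1 and overlapped it in run 2. Rian had a log2 fold change of 0.32 ± 0.07 with let-7d and 0.28 ± 0.07 with let-7e (SE), given with no p because the gene was picked on these values. By run, it was 0.20 in run 2 and 0.50 in run 1 with let-7d, and 0.07 in run 2 and 0.52 in run 1 with let-7e. Between runs the log2 difference, run 2 over run 1, was 0.65 ± 0.06 in Rian and -0.67 ± 0.06 in Meg3 (SE).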

How the data were processed

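Total RNA of 12 libraries was sequenced on an Illumina NovaSeq. The authors deposited whole-number counts per Ensembl gene, made with STAR on GRCm38.p6 per the submitters' processing notes; the sources used here name no read counter, strand setting or multi-mapping rule. A second table, labelled RPKM, was not used, because the gene length it implies differs between libraries for the same gene (median ratio of highest to lowest 69.12). Of 15754 identifiers, 15736 matched GENCODE vM21 symbols.

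Groups were taken from the sample labels. The design text gives n = 6, and the 4 libraries per group listed were used. Counts were tested with edgeR 4.0.16 (R 4.3.3): TMM scaling, a quasi-likelihood fit to all 12 libraries with terms for group and run (8 residual degrees of freedom), or their interaction (6), no gene removed by filterByExpr, and Benjamini-Hochberg adjustment over all genes, two-sided. Genes with an adjusted p under 0.05 were called. The fit was tested on simulated data. limma 3.58.1 and DESeq2 1.42.0 served as alternatives, beside other scalings, filters, run handling and leaving out each library. Fold changes are log2, and CPM are means with SD.

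Members and lists were chosen with earlier results of these data known. Named genes were all members, the 3 other imprinted genes with the smallest p per mimic, and the 5 most like H19 (average log2 CPM of at least 2, prior count 2). Rian was added after its values were seen. Same-numbered libraries deviated together from their group means (r of 0.832 to 0.881). Once the run was removed, r was -0.065 to 0.188. With 2 libraries per group and run, such an r over all genes cannot exclude a pairing by number. No 2 libraries of the same group and run were alike within counting noise (chi-square per degree of freedom 2.31 to 9.92).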

Additional observations from a re-analysis of the deposited data

Results flagged for a closer look

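Among the 27 sets of 4 libraries examined, 2 had 1 library far from the others. Each set joins 2 libraries of each run, and a split by run can hide such a library. The flag is therefore a description, with no chance rate beside it. In Grb10 with control, the gap between the lowest library (321.7 CPM, replicate 3) and the next was 0.831 of the whole range. In Mest with let-7d, the gap below the lowest library (13.2 CPM, replicate 4) was 0.9 of the range, with 19.01 to 19.66 CPM in the others.

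In 5 cases the mimic libraries of run 2 all lay above the mean of their controls and those of run 1 all below it, or the reverse. The difference of the log2 fold change, run 2 minus run 1, was -0.3229 for Meg3 with let-7e (edgeR adjusted p = 0.431), 0.5012 for Cdkn1c with let-7e (edgeR adjusted p = 0.616) and -0.6695 for Plagl1 with let-7e (edgeR adjusted p = 0.404). It was 0.5427 for Mest with let-7d (edgeR adjusted p = 0.261) and 0.3748 for Mest with let-7e (edgeR adjusted p = 0.623). None of these differences passed the threshold of 0.05 over all genes.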

How the results depend on the processing

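Without the run term, 0 members were called with let-7d and 0 with let-7e, and of the other imprinted genes 0 and 0. In run 2 alone 0 members were called with let-7d and 0 with let-7e, beside 3 and 1 of the other imprinted genes, and in run 1 alone 1 member was called with let-7e. Over all genes, calls with let-7d numbered 2555, against 7 without the run term and 740 in run 2 alone, and calls with let-7e 1496, against 0 and 197; leaving out let-7e replicate 1 or 2 gave 844 or 874. With only the groups compared in the fit, 1 member was called with let-7e, where Grb10 had an edgeR adjusted p of 0.105. Leaving out each library in turn gave 1 to 2 member calls and 2 to 6 calls of other imprinted genes with let-7e, and 0 to 1 for the difference of the let-7d effect between runs. Without control replicate 1, the effect differed between runs in 219 of all genes for let-7d and 153 for let-7e, against 38 and 1 with all libraries. The H19 log2 fold change was -1.174 in run 2 alone and -1.795 in run 1 alone with let-7d, and -1.625 in run 1 alone with let-7e. With the replicate block in place of the run term, 2 members were called with let-7d and 2 with let-7e, and the H19 values were -1.448 and -1.295.

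Of the other values of single members, 982 kept their direction and side of the threshold, 20 lost a call, 1 gained one and 42 changed sign. Those that changed sign were not called under either setting. With let-7d against control, they were Peg3 at 0.02 and Mest at -0.1038 in run 1 alone. With let-7e they were Meg3 at -0.1115 and Mest at 0.1868 in run 2 alone, Cdkn1c at -0.2862 and Plagl1 at 0.2059 in run 1 alone, and Mest at 0.003121 with only the groups compared. For let-7d against let-7e they were Cdkn1c at -0.08385, Peg3 at -0.009818 and Plagl1 at 0.1163 in run 2 alone, and Meg3 at -0.01964 and Igf2r at -0.02341 in run 1 alone. Leaving out 1 library gave log2 values of both signs for Mest with let-7d (-0.006416 to 0.2588), and with let-7e for Meg3 (-0.005667 to 0.1252), Cdkn1c (-0.09958 to 0.1218) and Mest (-0.06724 to 0.09318). Between the mimics it did so for H19 (-0.3176 to 0.05132), Cdkn1c (-0.01935 to 0.2021), Peg3 (-0.04786 to 0.06185), Plagl1 (-0.165 to 0.0004806), Igf2r (-0.02672 to 0.06578) and Mest (-0.002079 to 0.2348). For the difference between runs it did so with let-7d for Dlk1 (-0.3131 to 0.1343), Cdkn1c (-0.1264 to 0.1382), Grb10 (-0.01533 to 0.07088) and Igf2r (-0.1217 to 0.1275), and with let-7e for Igf2r (-0.2001 to 0.02357). Counts of 38 to 210 for Cdkn1c and 62 to 165 for Dlk1 limit their precision. The cause of these shifts was not tested.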
